A study of Homo sapiens with 12 samples.

Results

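From the table of gene counts, 10 genes of 58735 in all were taken by symbol: IDH1, IDH2, IDH3A, IDH3B, IDH3G, OGDH, OGDHL, SUCLA2, SUCLG1 and SUCLG2. They encode the enzymes that carry isocitrate through oxoglutarate and succinyl-CoA to succinate, and they include paralogs that serve the same step. All 10 passed the filter on low counts. The rule used gene names and no measured value. The 10 genes were, however, chosen with earlier results of these data known.

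The counts came from polyA RNA of C4.2B, a human prostate cancer cell line that grows without androgen, with 12 libraries in 4 arms of 3. The DMSO arm received vehicle. The AKTi arm received the AKT inhibitor ipatasertib at 0.25 μM and the EZH2i arm received the EZH2 inhibitor tazemetostat at 1 μM. The combination arm received both agents at these doses. Cells of the EZH2i and combination arms had 6 days of tazemetostat before cotreatment started, which the AKTi arm had no counterpart to. All 4 arms were switched to 10% charcoal-stripped FBS when cotreatment began and were collected 24 hours later. All libraries therefore come from 1 cell line in low-androgen serum. Per the study's methods the replicates of an arm were separate plates, seeded after the pretreatment on the day before dosing. Nothing says that they came from independent cultures or days, so p-values measure the spread between plates.

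Isocitrate dehydrogenases oxidize isocitrate to oxoglutarate. The enzymes encoded by IDH1 (cytosol and peroxisomes) and IDH2 (mitochondria) use NADP and yield NADPH, and the mitochondrial IDH3 complex, built from the catalytic alpha subunit IDH3A with the beta and gamma subunits IDH3B and IDH3G, uses NAD and serves the TCA cycle. The oxoglutarate dehydrogenase complex then forms succinyl-CoA, with OGDH or its paralog OGDHL as the E1 component that decarboxylates oxoglutarate. Succinyl-CoA ligase releases succinate. Its alpha subunit, SUCLG1, pairs with either SUCLA2, which makes the ADP-dependent enzyme, or SUCLG2, which makes the GDP-dependent enzyme. Oxoglutarate is also the cosubstrate of dioxygenases such as histone and DNA demethylases.

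Total counts ranged from 14133755 to 22276417 per library. The line's identity was checked on 11 luminal prostate markers such as KLK2 and KLK3, and all 11 had over 10 counts in every library. Their summed level in CPM, the count scaled to the library's total, was 4487 to 4656 in the DMSO libraries and 9976 to 10160 in the combination, where 9 of 11 were higher and 2 lower than in DMSO. Of 10 markers of leukocytes, fibroblasts, endothelium and basal epithelium, 2 were at 0 in every library, and 2 had over 10 counts in each library. The summed level of all 10 was 7.39 to 11.4 CPM in DMSO and 8.90 to 10.2 with AKTi. It was 23.4 to 26.5 with EZH2i and 17.6 to 21.0 with both agents. Of 4 tested, VWF was higher with AKTi, COL1A1, COL3A1 and VWF with EZH2i, and COL1A1 and VWF with both agents. The share of counts on mitochondrially encoded genes was 2.37% to 3.36% under DMSO, 3.93% to 4.29% under AKTi, 4.35% to 5.31% under EZH2i and 5.14% to 5.64% under both agents. The marker sums and these shares move with the arms, and their part in the results was not tested. In bulk libraries such as these, fewer cells of a type and less RNA per cell cannot be told apart.

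In the combination, 9 of the 10 genes fell and OGDHL rose. Levels are given as CPM after TMM scaling, and a log2 fold change is the difference of fitted arm means. By edgeR's quasi-likelihood test, adjusted over 16646 genes at a threshold of 0.05, the combination differed from DMSO for all 10 genes, where 73.2% of all tested genes were called. Of all tested genes, 35.2% were called lower, beside 9 of the 10, and 38% higher, beside 1. The median log2 fold change of the 10 genes was -0.74, and that of all tested genes was 0.06. The falls ran from -0.35 for SUCLG2 and OGDH to -1.51 for SUCLG1, and OGDHL changed by 1.88. With scaling by library size or by upper quartile, which moved the median of all genes to 0.26 and 0.25, the changes were smaller but still passed for OGDH (-0.16 and -0.17), SUCLG2 (-0.15 and -0.16) and IDH3G (-0.30 and -0.31, from -0.50).

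The single agents divided the genes. With AKTi, 4 genes were lower (IDH1, IDH3A, SUCLA2 and SUCLG1), 2 were higher (OGDHL and SUCLG2) and 4 did not pass, where 42.5% of all tested genes were called, 21.9% lower and 20.6% higher. With EZH2i, 6 were lower, OGDHL was higher, and IDH2, IDH3G and OGDH did not pass, where 64.1% of all tested genes were called, 31.5% lower and 32.6% higher. The median of the 10 genes was -0.09 with AKTi and -0.32 with EZH2i, beside 0.01 and 0.03 for all tested genes. The comparisons with DMSO share the same 3 DMSO libraries, so their values are given side by side and not as independent evidence.

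**Figure D1:**
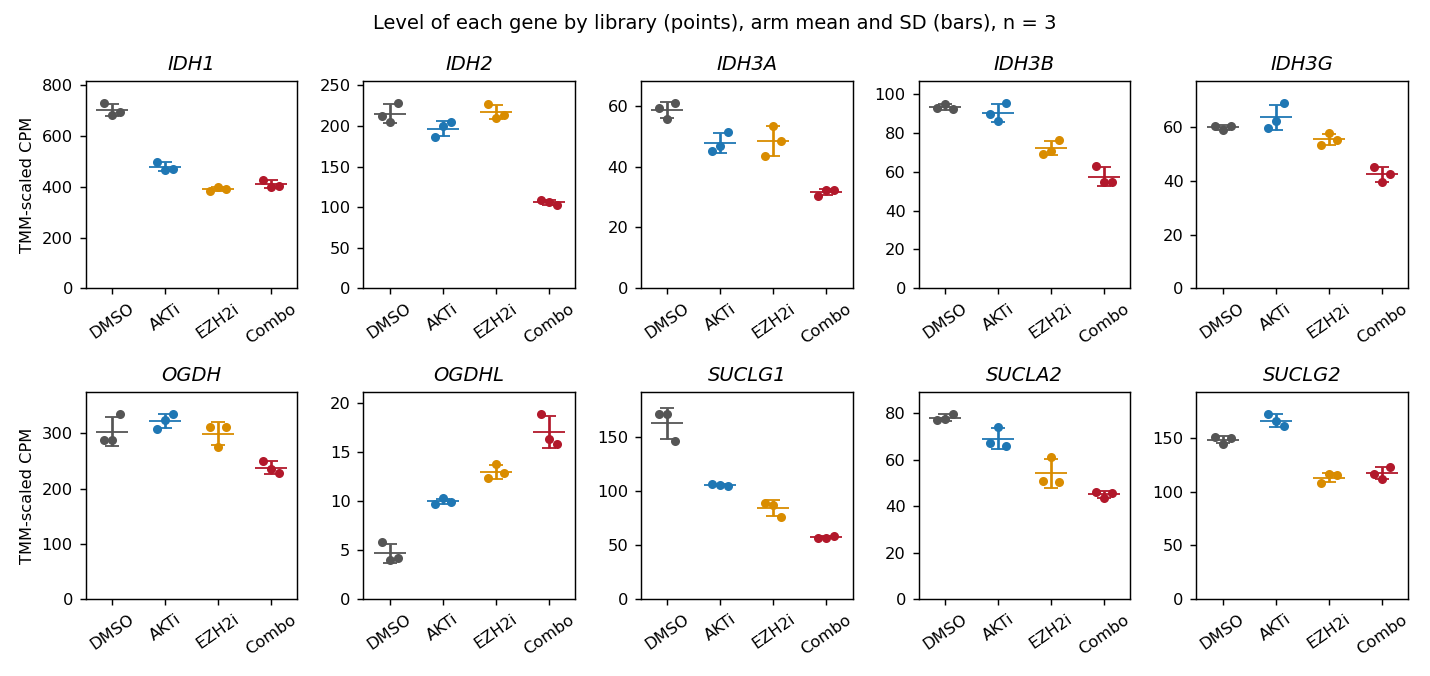
Level of each gene in TMM-scaled CPM (linear axis from 0) by arm, with 3 libraries per arm as points and the mean and SD as bars. OGDHL climbs from 3.98 to 5.79 CPM in DMSO to between 15.9 and 18.9 in the combination, while IDH2 lies between 186 and 228 CPM in the other arms and between 102 and 108 in the combination.

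The combination was next set against each single agent. Against AKTi alone, 9 genes were lower and OGDHL was higher, where 64.2% of all tested genes were called, 32.1% in each direction. Against EZH2i alone, 7 were lower and OGDHL was higher, where 46.7% of all tested genes were called, 25.7% lower and 21.1% higher. IDH1 and SUCLG2 did not pass against EZH2i, with log2 differences of 0.07 (95% interval -0.05 to 0.19) and 0.05 (-0.08 to 0.18). In all, 7 genes were lower in the combination than in both single-agent arms, as were 19.7% of all tested genes, and OGDHL was higher than in both, as were 15.5%. The interaction, which is the combination change minus the sum of the 2 single-agent changes on the log2 scale, was negative for 6 genes and positive for IDH1, where 28.2% of all tested genes were called, 17.5% negative and 10.7% positive.

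**Figure D2:**
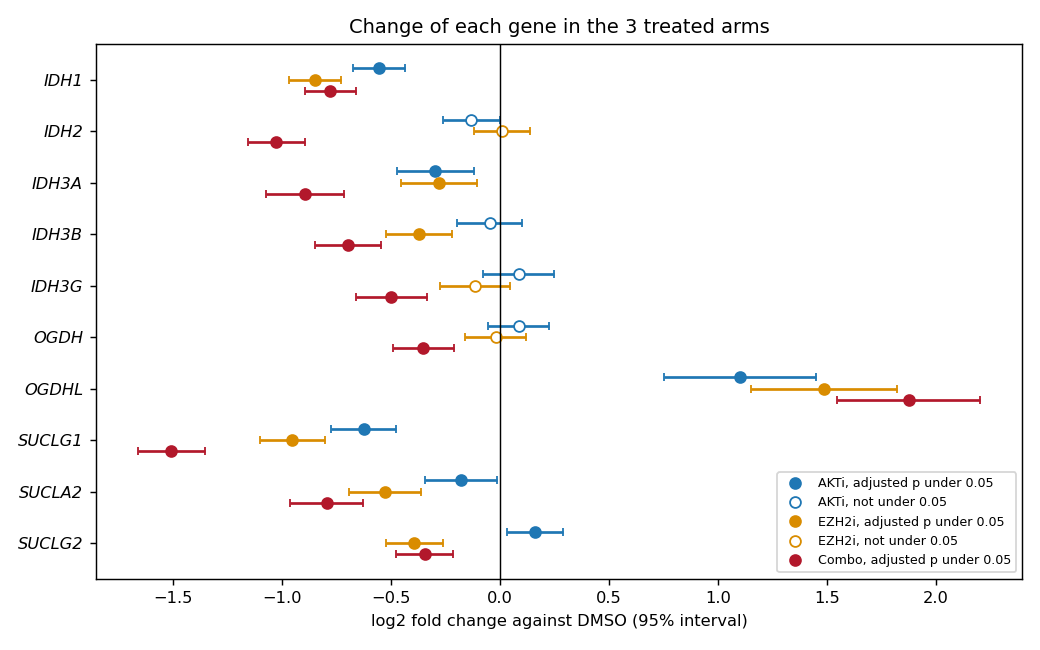
Log2 fold change of each gene against DMSO (horizontal axis) in the AKTi, EZH2i and combination arms, with 95% intervals as bars and open points where the adjusted p was not under 0.05. The combination points lie left of 0 for 9 genes, down to -1.51 for SUCLG1, and OGDHL lies right of 0 in each arm.

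IDH1 (ENSG00000138413, hg38 chromosome 2, 208236227 to 208266074, minus strand) fell with each agent, and the combination went no lower than EZH2i. The DMSO libraries had 727, 682 and 694 CPM and the AKTi libraries 498, 466 and 470. The EZH2i libraries had 382, 397 and 390 CPM and the combination libraries 428, 398 and 402. AKTi and the tazemetostat-treated arms did not overlap DMSO or each other, while each combination library lay above each EZH2i library by a margin that did not pass the test. That margin passed with scaling by library size (0.12, adjusted p = 0.0439) or by upper quartile (0.14, adjusted p = 0.0234). The log2 fold change was -0.55 with AKTi (SE 0.051, adjusted p = 3.81e-11), -0.85 with EZH2i (SE 0.052, adjusted p = 8.64e-17) and -0.78 with the combination (SE 0.052, adjusted p = 4.1e-16). The sum of the single-agent changes would be -1.40, and the interaction was 0.62 (SE 0.073, adjusted p = 1.96e-08). The difference from AKTi alone, -0.22, was lost with scaling by library size only (-0.09, adjusted p = 0.128) or by upper quartile (-0.10, adjusted p = 0.0806). The antisense gene IDH1-AS1 had at most 1.69% of the count of IDH1 in any library.

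IDH2 (ENSG00000182054, chromosome 15, 90083045 to 90102504, minus strand) fell in the combination and in neither single-agent arm by the test. It had 213, 205 and 228 CPM in the DMSO libraries, 186, 200 and 205 in AKTi and 227, 210 and 214 in EZH2i. The combination libraries had 108, 107 and 102 CPM, below every other library. The combination changed IDH2 by -1.02 against DMSO (SE 0.057, adjusted p = 2.5e-18), which is 2.03-fold lower, by -0.89 against AKTi and by -1.03 against EZH2i. With EZH2i alone the log2 fold change was 0.01 (95% interval -0.12 to 0.14, adjusted p = 0.889), and with AKTi alone it was -0.13 (-0.26 to -0.00077, adjusted p = 0.0597). The interaction of -0.90 (SE 0.080, adjusted p = 3.19e-11) was the lowest of the 10. The AKTi estimate passed with DESeq2 (-0.14, adjusted p = 0.0418) and without DMSO library B (-0.19), AKTi library C (-0.18) or EZH2i library A (-0.13). IDH2 was called higher with EZH2i under scaling by library size (0.15, adjusted p = 0.0133) or upper quartile (0.13, adjusted p = 0.0332), under which the median of all genes also moved to 0.17 and 0.15.

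The ratio of IDH2 to IDH1 lay above its DMSO level with either agent alone and below it with both. A ratio of 2 counts within a library does not depend on how libraries are scaled. Per kilobase of gene length, IDH2 made up 34.0% ± 1.37 of the sum of both transcripts in the DMSO libraries, 40.9% ± 2.03 with AKTi, 48.3% ± 1.46 with EZH2i and 30.3% ± 0.669 with both agents (SD, n = 3 each). No arm overlapped DMSO on this share, and the single-agent arms lay above it while the combination lay below. The log2 ratio moved by 0.42 with AKTi, 0.86 with EZH2i and -0.25 with the combination relative to DMSO. Averaged over the presence of the other agent, the effect of tazemetostat was 0.09 (exact stratified permutation test, two-sided, adjusted p = 0.678 over 18 tests) and that of ipatasertib -0.34 (exact permutation adjusted p = 0.228). Behind these averages, tazemetostat moved the ratio by 0.86 without ipatasertib and by -0.67 with it, and ipatasertib by 0.42 without and -1.10 with tazemetostat. An exact permutation test over all 4 arms, added after this pattern was seen, gave an adjusted p of 0.00019 over the 9 ratios (raw p = 6.5e-05, the smallest it can give). All 9 ratios passed that test, with adjusted p from 0.00019 to 0.024, and OGDHL to OGDH and SUCLG2 to SUCLG1 had the same smallest p. The summed level of both transcripts was 225 CPM per kilobase in DMSO, 171 with AKTi, 160 with EZH2i and 124 with both agents.

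The 3 subunits of the NAD-dependent enzyme all fell in the combination, and they differed under the single agents. IDH3A, the catalytic alpha subunit (ENSG00000166411, chromosome 15, 78131498 to 78171949, plus strand), had 59.2, 55.7 and 60.8 CPM in the DMSO libraries and 30.5, 32.2 and 32.1 in the combination. Its log2 fold change was -0.30 with AKTi, -0.28 with EZH2i and -0.89 with the combination (SE 0.078, adjusted p = 8.7e-13). Each treated arm lay below DMSO, and the single-agent arms overlapped each other, with 45.1 to 51.4 CPM in AKTi and 43.4 to 53.2 in EZH2i. The EZH2i call was lost with scaling by library size (-0.13, adjusted p = 0.127) or upper quartile (-0.16, adjusted p = 0.0639). IDH3B, the beta subunit (ENSG00000101365, chromosome 20, 2658395 to 2664219, minus strand), had 92.4, 94.8 and 92.3 CPM in DMSO and 62.9, 54.8 and 54.4 in the combination. It changed by -0.05 with AKTi (95% interval -0.20 to 0.10, adjusted p = 0.604), by -0.37 with EZH2i (adjusted p = 5.44e-06) and by -0.70 with the combination (SE 0.066, adjusted p = 7e-12). The AKTi libraries spanned the DMSO range, with 89.6 and 86.0 CPM in A and B and a value above the highest DMSO library in C, and the EZH2i libraries lay below it with 69.2 to 76.0. IDH3G, the gamma subunit (ENSG00000067829, chromosome X, 153785766 to 153794523, minus strand), had 60.7, 59.1 and 60.6 CPM in DMSO and 45.4, 39.7 and 42.7 in the combination, a change of -0.50 (SE 0.071, adjusted p = 9.63e-08). With either agent alone it did not pass, with 0.09 in AKTi (-0.08 to 0.25) and -0.11 in EZH2i (-0.27 to 0.05). Without AKTi library C the EZH2i estimate for IDH3G was -0.16 and passed (adjusted p = 0.0429).

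The interaction was negative for all 3 subunits, at -0.32 for IDH3A (adjusted p = 0.0261), -0.28 for IDH3B (adjusted p = 0.0208) and -0.47 for IDH3G (adjusted p = 0.000369). For IDH3A the call was lost on leaving out DMSO library B (-0.25), AKTi library B (-0.30) or C (-0.23), EZH2i library B (-0.25) or C (-0.29), or combination library A (-0.30). For IDH3B it was lost without DMSO library B (-0.26), AKTi library C (-0.21), EZH2i library C (-0.21), or combination library B (-0.25) or C (-0.25). Within a library, ipatasertib raised the log2 ratio of IDH3B to IDH3A by 0.26 (exact stratified permutation adjusted p = 0.0112) and that of IDH3G to IDH3A by 0.30 (exact permutation adjusted p = 0.02). Tazemetostat did not pass for any of the 3 subunit ratios, with 0.17 for IDH3G to IDH3B as the closest (exact permutation adjusted p = 0.054). That ratio passed without EZH2i library B (0.15) or combination library B (0.18), each with an exact permutation adjusted p of 0.0491, and IDH3G to IDH3A passed without combination library B (0.12, exact permutation adjusted p = 0.036). The ratio of IDH3A to IDH2, the mitochondrial NAD and NADP enzymes, moved by -0.17 with AKTi, -0.29 with EZH2i and 0.13 with the combination. Averaged over the other agent neither effect passed (exact permutation adjusted p = 0.99 for tazemetostat and 0.366 for ipatasertib), and the test over all 4 arms gave an adjusted p of 0.0038 by exact permutation. CIB2, which overlaps IDH3A on the opposite strand, had between 2 and 192 counts, up to 32.0% of the count of IDH3A, and SSR4, which overlaps IDH3G on the opposite strand, had 1683 to 3637. The strand setting of the counting is not given in the sources used here, so reads of these overlaps could not be assigned with certainty.

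The E1 paralogs of oxoglutarate dehydrogenase moved apart. OGDH (ENSG00000105953, chromosome 7, 44606572 to 44709066, plus strand) had 288, 287 and 334 CPM in the DMSO libraries and 308, 324 and 335 in AKTi. It had 311, 275 and 312 CPM in EZH2i and 250, 235 and 228 in the combination, where each library lay below every library of the other arms. Its log2 fold change was 0.09 with AKTi (95% interval -0.05 to 0.23, adjusted p = 0.262), -0.02 with EZH2i (-0.16 to 0.12, adjusted p = 0.795) and -0.35 with the combination (SE 0.061, adjusted p = 3.38e-06). The interaction was -0.42 (SE 0.086, adjusted p = 0.000243). The AKTi estimate passed without DMSO library C, the highest of that arm (0.16, adjusted p = 0.0282), and with scaling by library size (0.15) or upper quartile (0.15).

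OGDHL (ENSG00000197444, chromosome 10, 49734643 to 49762379, minus strand) was the only 1 of the 10 genes that rose with each agent and in the combination. Its counts were low, at 86, 54 and 88 in the DMSO libraries, 135, 147 and 142 with AKTi, 185, 236 and 280 with EZH2i and 373, 283 and 263 with both agents. In CPM these were 5.79, 3.98 and 4.22, then 9.77, 10.3 and 9.87, then 12.4, 13.8 and 12.9, and 18.9, 16.3 and 15.9. No library of an arm overlapped another arm. The log2 fold change was 1.10 with AKTi (SE 0.151, adjusted p = 1.79e-07), 1.49 with EZH2i (SE 0.145, adjusted p = 2.52e-11) and 1.88 with the combination (SE 0.142, adjusted p = 1.73e-14), which is 3.67-fold higher. The combination was 0.77 above AKTi (adjusted p = 3e-06) and 0.39 above EZH2i (adjusted p = 0.00955). The rise was less than the sum of the single-agent changes, 2.59, with an interaction of -0.71 (SE 0.196, adjusted p = 0.00529). The call against EZH2i was lost without EZH2i library A (0.33, adjusted p = 0.0545) or combination library A (0.30, adjusted p = 0.0838).

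The promoter windows of OGDHL and SUCLG1 are shown because these genes had the largest rise and the largest fall in the combination. Each holds 250 bases before and 50 bases after a start site of RefSeq (GRCh38.p14), and 9 of the 10 genes had such a window, OGDH being without. The E-box CACGTG and the cores ACGTG and GCGTG, letters that basic helix-loop-helix factors such as MYC or HIF-1 can bind, were searched on both strands and are in capitals, where CACGTG also counts as ACGTG.
OGDHL, chr10:49762330-49762629, minus strand: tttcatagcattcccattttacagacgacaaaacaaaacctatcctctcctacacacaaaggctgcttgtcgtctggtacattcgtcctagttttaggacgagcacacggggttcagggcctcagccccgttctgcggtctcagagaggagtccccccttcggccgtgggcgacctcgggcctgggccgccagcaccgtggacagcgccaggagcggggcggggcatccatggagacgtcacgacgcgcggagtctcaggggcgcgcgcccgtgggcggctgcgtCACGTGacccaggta
SUCLG1, chr2:84459231-84459530, minus strand: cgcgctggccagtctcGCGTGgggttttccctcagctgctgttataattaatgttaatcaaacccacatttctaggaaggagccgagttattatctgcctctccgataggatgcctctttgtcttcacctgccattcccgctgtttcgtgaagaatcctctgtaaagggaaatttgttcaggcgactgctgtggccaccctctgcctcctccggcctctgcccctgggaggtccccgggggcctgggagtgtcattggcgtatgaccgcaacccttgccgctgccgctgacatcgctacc
RefSeq lists another OGDHL start, whose window overlaps this one and also holds 1 CACGTG, with 35 CpG dinucleotides. The OGDHL window shown holds 1 CACGTG and 28 CpG dinucleotides, and the SUCLG1 window holds 1 GCGTG and 16. Among 35116 RefSeq windows of the same length, 7.26% hold CACGTG, 21.4% hold ACGTG and 36.5% hold GCGTG. Their median number of CpG dinucleotides was 14, with quartiles of 4 and 28. GCGTG also stands in windows of IDH1, IDH2, IDH3A, IDH3B and IDH3G, and ACGTG in windows of IDH1 and IDH3G. Such a match describes the letters of the window and is not a measured binding site.

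By count ratio, OGDHL gained on OGDH in each treated arm. The log2 ratio was above its DMSO mean by 1.02 with AKTi, 1.51 with EZH2i and 2.23 with both agents, without overlap of any arm with DMSO. Tazemetostat raised it by 1.36 (exact stratified permutation adjusted p = 0.0112) and ipatasertib by 0.87 (exact permutation adjusted p = 0.0112), both at the raw p of 0.005 that is the smallest this design allows. Per kilobase, OGDHL remained the minor transcript, with 1.39% ± 0.353 of the E1 sum under DMSO, 2.74% ± 0.113 under AKTi, 3.83% ± 0.472 under EZH2i and 6.12% ± 0.273 under both agents (SD, n = 3 each). The E1 sum was 59.0 CPM per kilobase in DMSO, 63.6 with AKTi, 59.7 with EZH2i and 48.6 with both agents, where its highest library, 51.4, lay below the lowest DMSO library, 55.8.

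**Figure D3:**
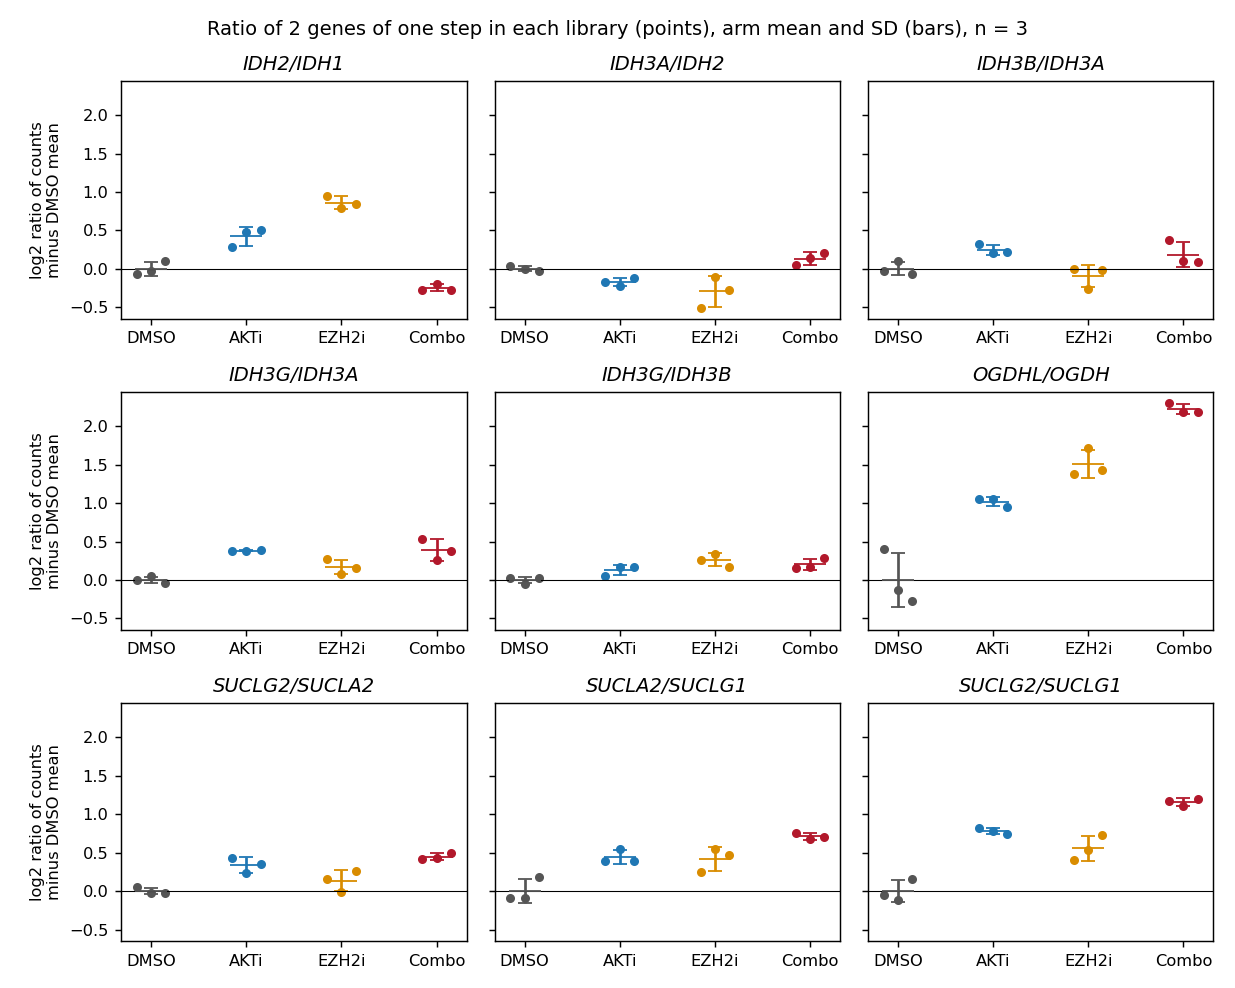
Log2 ratio of the counts of 2 genes in each library minus the DMSO mean (vertical axis, shared by all panels), for all 9 pairs compared, with the arm mean and SD as bars. OGDHL to OGDH climbs to 2.23 in the combination, while IDH2 to IDH1 stands at 0.42 and 0.86 with single agents and at -0.25 in the combination.

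SUCLG1, the alpha subunit that both forms of succinyl-CoA ligase need (ENSG00000163541, chromosome 2, 84423523 to 84460045, minus strand), fell most of the 10 genes. The DMSO libraries had 171, 172 and 146 CPM and the AKTi libraries 106, 105 and 105. The EZH2i libraries had 89.3, 87.4 and 76.2 CPM and the combination libraries 56.7, 56.8 and 58.4. The 4 arms formed a descending order without overlap. The log2 fold change was -0.62 with AKTi (SE 0.065, adjusted p = 5.03e-10), -0.95 with EZH2i (SE 0.065, adjusted p = 2.03e-15) and -1.51 with the combination (SE 0.067, adjusted p = 2.36e-21), which is 2.84-fold lower. The combination was lower than AKTi by -0.88 and lower than EZH2i by -0.55. The sum of the single-agent changes was -1.58, and the interaction of 0.07 did not pass (95% interval -0.15 to 0.29, adjusted p = 0.637).

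The beta subunits fell less than their alpha partner. SUCLA2, the ADP-forming beta subunit (ENSG00000136143, chromosome 13, 47745736 to 48037968, minus strand), had 76.8, 77.4 and 79.6 CPM in DMSO and 67.1, 74.0 and 65.8 in AKTi. It had 50.8, 61.3 and 50.3 CPM in EZH2i and 46.0, 43.4 and 45.6 in the combination, each arm below the one before without overlap. Its log2 fold change was -0.18 with AKTi (SE 0.071, adjusted p = 0.0438), -0.53 with EZH2i (SE 0.072, adjusted p = 5.03e-08) and -0.79 with the combination (SE 0.073, adjusted p = 2.98e-12). The AKTi call was lost with DESeq2, a filter of at least 1 count, scaling by library size or upper quartile, or without DMSO library A (-0.19) or C (-0.16), AKTi library A (-0.16) or C (-0.17), or combination library A (-0.18). The difference of -0.27 between the combination and EZH2i (adjusted p = 0.00293) was lost without EZH2i library B, the highest of its arm (-0.17, adjusted p = 0.0625).

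SUCLG2, the GDP-forming beta subunit (ENSG00000172340, chromosome 3, 67360460 to 67654614, minus strand), rose with AKTi and fell with EZH2i. It had 151, 145 and 150 CPM in DMSO and 172, 165 and 161 in AKTi. The EZH2i libraries had 108, 116 and 115 CPM and the combination libraries 117, 111 and 123, so that AKTi lay above DMSO and the other arms below it. The log2 fold change was 0.16 with AKTi (SE 0.056, adjusted p = 0.0181), -0.39 with EZH2i (SE 0.056, adjusted p = 1.44e-07) and -0.35 with the combination (SE 0.056, adjusted p = 1.14e-06). The interaction of -0.11 did not pass (95% interval -0.30 to 0.07, adjusted p = 0.308). The AKTi call was lost without DMSO library B (0.12), AKTi library A (0.13), B (0.14) or C (0.16), or with a filter of at least 1 count (0.16, adjusted p = 0.0852).

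Within libraries, the ligase subunits moved relative to each other with each agent. The log2 ratio of SUCLG2 to SUCLG1 rose by 0.47 with tazemetostat and by 0.69 with ipatasertib, and that of SUCLA2 to SUCLG1 by 0.34 and 0.37 (exact stratified permutation adjusted p = 0.0112 for each of the 4). The ratio of the beta subunits, SUCLG2 to SUCLA2, rose by 0.32 with ipatasertib (exact permutation adjusted p = 0.0112), and tazemetostat did not pass with 0.12 (exact permutation adjusted p = 0.0736), but did without AKTi library A (0.15, exact permutation adjusted p = 0.036) or EZH2i library B (0.16, exact permutation adjusted p = 0.027). Per kilobase, SUCLG2 made up 84.6% ± 0.375 of the beta sum under DMSO, 87.4% ± 0.776 under AKTi, 85.8% ± 1.17 under EZH2i and 88.2% ± 0.324 under both agents (SD, n = 3 each). The beta sum was 56.8 CPM per kilobase in DMSO, 61.5 with AKTi, 42.7 with EZH2i and 42.9 with both agents. Over all 9 ratios, ipatasertib changed 6 and tazemetostat 3 at an adjusted p under 0.05. The share called among ratios of other genes was not computed, so these counts say nothing particular to the 10 genes.

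Set side by side per kilobase, the order of the 10 genes changed. In DMSO it ran from IDH1 at 148.5 CPM per kilobase through IDH2 at 76.5, OGDH at 58.2, SUCLG2 at 48.0, SUCLG1 at 38.0, IDH3B at 36.3, IDH3G at 22.1, SUCLA2 at 8.73 and IDH3A at 8.57 to OGDHL at 0.815. SUCLG1 overlapped IDH3B, and SUCLA2 overlapped IDH3A, so neither pair of neighbours is ordered beyond its spread. In the combination the order was IDH1 at 86.7, OGDH at 45.6, SUCLG2 at 37.8, IDH2 at 37.6, IDH3B at 22.3, IDH3G at 15.7, SUCLG1 at 13.4, SUCLA2 at 5.04, IDH3A at 4.62 and OGDHL at 2.98, with SUCLG2 and IDH2 overlapping. IDH2 went from the second place to the fourth and SUCLG1 from the fifth to the seventh. The lengths, between 2567 bases for IDH3B and 8928 for SUCLA2, are those of the deposited table, whose definition is not given in the sources used here, and they set the levels between genes but not the changes between arms.

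The interaction parted IDH1 from IDH2, at 0.62 and -0.90. For both E1 genes it was called negative, at -0.42 for OGDH and -0.71 for OGDHL. OGDH fell below the sum of its single-agent changes, while OGDHL rose by 1.88, less than its sum of 2.59. The 3 IDH3 subunits were also called negative, with the calls of IDH3A and IDH3B lost on leaving out single libraries. On the log2 scale the single-agent changes summed to -0.12 for IDH2, -0.03 for IDH3G and 0.07 for OGDH, and the combination gave -1.02, -0.50 and -0.35. For the 3 ligase subunits the sums were -1.58 (SUCLG1), -0.70 (SUCLA2) and -0.23 (SUCLG2), beside -1.51, -0.79 and -0.35 in the combination, and none of their interactions passed (adjusted p = 0.637, 0.568 and 0.308).

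**Figure D4:**
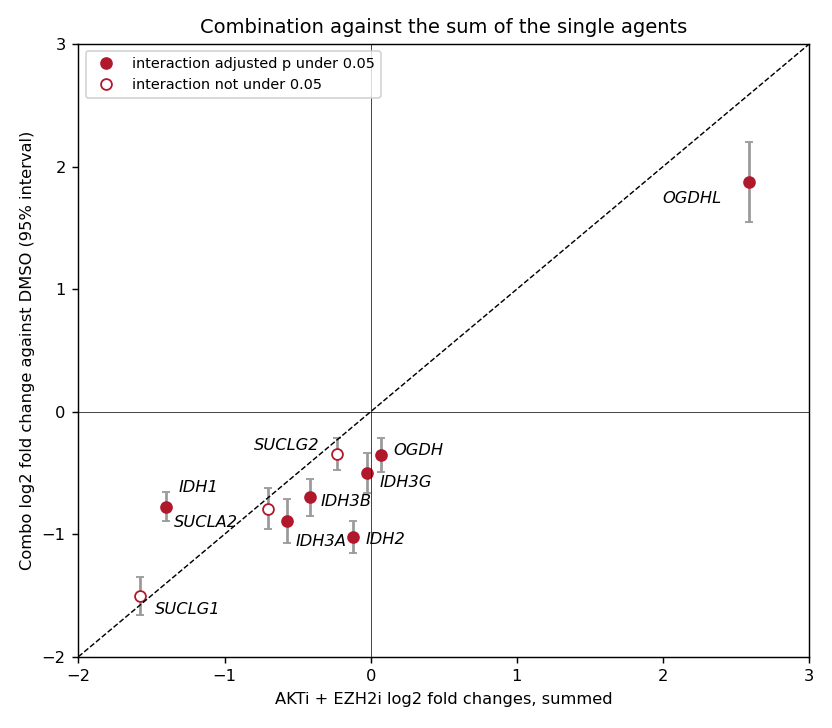
Combination log2 fold change against DMSO (vertical axis, 95% intervals as bars) over the sum of the AKTi and EZH2i log2 fold changes (horizontal axis), where the dashed line marks equality and filled points have an interaction adjusted p under 0.05. IDH1 lies above the line, IDH2 at -1.02 lies furthest below it among the genes that fell, and the 3 ligase subunits are open points.

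Other genes around these steps were followed with lists that do not hold the 10 genes. Of all tested genes, 35.2% were called lower in the combination than in DMSO and 38% higher. Of a list of 4 genes around oxoglutarate dehydrogenase, the 3 that encode its partners were lower in the combination than in DMSO. They were DLD, the shared E3 component (-1.05), MRPS36, a protein that joins E3 to the complex (-1.04), and DLST, the E2 component (-0.52). DHTKD1, the oxoadipate E1 paralog, had 0.05 (adjusted p = 0.554) and was called higher with AKTi alone (0.38). Of 15 other TCA cycle and pyruvate dehydrogenase genes, 14 were lower and 1 higher, with a median of -1.06. They ranged from DLAT, the E2 of pyruvate dehydrogenase (-2.09), and FH, fumarase (-1.67), to SDHC, a succinate dehydrogenase membrane subunit (-0.33), and ACO1, the cytosolic aconitase (0.155, adjusted p = 0.0366). With AKTi alone 7 of the 15 were lower and 1 higher, where 21.9% of all tested genes were lower, and with EZH2i alone 13 were lower and 1 higher, where 31.5% were lower.

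Of 17 tested genes that make, use or carry oxoglutarate and citrate, 14 were lower in the combination and none was higher, with a median of -0.91. The lowest were SLC25A11, the mitochondrial oxoglutarate carrier (-1.72), and GOT2, the mitochondrial aspartate aminotransferase (-1.46), and the smallest falls that passed were those of GPT2 (-0.29), an alanine aminotransferase, and BCAT2 (-0.45), a branched-chain aminotransferase. GLUD1 (0.08), GPT (-0.10) and BCAT1 (-0.12) did not pass in the combination, and ADHFE1 was too low to be tested. With EZH2i alone BCAT1 (-2.23) and GLUD1 (-0.41) were called lower, and with AKTi alone GLUD1 (0.37) was called higher. GPT passed with neither agent. Of 7 genes that form or use succinyl-CoA elsewhere, 3 were lower and 1 was higher, with a median of -0.17. ALAS1, which starts heme synthesis from succinyl-CoA, changed by -1.04, PCCB, a subunit of propionyl-CoA carboxylase, by -0.65, OXCT1, which uses succinyl-CoA in ketone body breakdown, by -0.54 and SUGCT, a succinyl-CoA to glutarate CoA transferase, by 1.22. MMUT (0.11), PCCA (-0.17) and MCEE (0.22) did not pass in the combination. MMUT was called higher with AKTi (0.26) and with EZH2i (0.18), PCCA was called lower with EZH2i (-0.49), and MCEE passed with neither agent.

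Of 9 tested genes of other NADPH-forming enzymes, 6 were lower and 2 higher in the combination, with a median of -0.61. MTHFD1, a cytosolic folate enzyme, changed by -2.19 and ME1, the cytosolic malic enzyme, by -1.60. NNT, the transhydrogenase of the inner mitochondrial membrane, rose by 1.35 and ALDH1L1, a cytosolic folate dehydrogenase, by 1.98. ALDH1L2 (-0.07, adjusted p = 0.754) did not pass in the combination but was called lower with EZH2i alone (-1.56), and ME3 was too low to be tested. The same background of 73.2% called, 35.2% lower and 38% higher, applies to all these lists. The 10 genes, with 9 lower and a median of -0.74, stood beside medians of -0.17 to -1.06 for the 5 lists.

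For 6 of the genes, the protein-coding genes with the most similar log2 CPM over the 12 libraries were looked up among 11366 genes, by Pearson's r as a description, since libraries of an arm share their treatment. IDH2 was most like ACTB (0.995), CFL1 (0.993) and AP1B1 (0.992), and IDH1 most like USP1, HAX1 and FBXO22, with r from 0.984 to 0.991. OGDHL was most like TMEM45B (0.989), SLX4IP and ABHD15 (0.984), and OGDH most like PIGO (0.971), PPP2R1A (0.966) and SLC35A2 (0.959). SUCLA2 was most like ERVMER34-1 (0.985), GRSF1 (0.984) and USP14 (0.982), and SUCLG2 most like PPM1K, KLHL23 (0.987) and DBT (0.979), a branched-chain ketoacid dehydrogenase component. Between the 10 genes themselves, IDH1 and IDH2 had r = 0.403 and OGDHL had a negative r with each of the other 9, down to -0.943 with SUCLG1.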

How the data were processed

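The libraries were made from polyA RNA of C4.2B cells, 3 in each of 4 arms. The authors aligned reads with STAR (hg38) and counted them on genes with HTSeq, and deposited raw counts (whole numbers) of 58735 genes with a gene length column that belongs to no sample. Versions, annotation and strand setting are not given in the sources used here. The authors also deposited DESeq2-normalized signal values, which were not needed for the values printed. The paper names more than 1 sequencing site without assigning libraries, so no batch term was fitted.

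Counts were analysed in R 4.3.3 with edgeR 4.0.16. Its filterByExpr kept 16646 genes (minimum count 10 and minimum total 15), libraries were scaled by TMM, and the quasi-likelihood test used all 12 libraries and a mean for each arm, with Benjamini-Hochberg adjustment over all genes at 0.05. Standard errors were derived from the F statistic and intervals used 8 residual degrees of freedom. The p-values came from the quasi-likelihood test, which moderates the spread of a gene by that of all genes and so uses more degrees of freedom. The intervals are therefore wider than the p-values imply. Each pair of genes was compared as the log2 ratio of counts (pseudocount 0.5) by an exact two-sided permutation test of libraries with and without an agent, stratified by the other agent (400 arrangements, smallest p 0.005), adjusted over 18 tests (9 pairs and 2 agents). Correlations used log2 CPM (prior count 2) of genes with a mean of at least 1.

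All 10 genes are named in every comparison. Of each other list, the text names the 2 largest and 2 smallest log2 fold changes in the combination among those that passed, and, chosen after their values were seen, the tested genes that did not pass and the genes not tested. The members and lists were chosen with earlier results of these data known. Results were recomputed with DESeq2 1.42.0, with upper-quartile or plain library-size scaling, with a filter of 1 count in total or of 10 in each library, on the 6 libraries of a comparison, with the replicate letter as a block (replicate block), without each library in turn and, for ratios, a pseudocount of 2 and each stratum alone. The steps were tested on simulated data. At totals of 14133755 to 22276417 counts per library, counting error is small for all members except OGDHL. Libraries of an arm differed by more than sampling noise, and each was counted as a replicate. The replicate letters did not pair the libraries: over 18 pairs with the same letter, deviations from arm means correlated between -0.06 and 0.07. Some items that belong to these results are not reported here.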

Additional observations from a re-analysis of the deposited data

Results flagged for a closer look

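For 7 genes the effect of an agent differed with the presence of the other agent, by the interaction term of edgeR's quasi-likelihood test, which called 28.2% of all tested genes. On the log2 scale the interaction was 0.62 for IDH1, -0.90 for IDH2, -0.32 for IDH3A, -0.28 for IDH3B, -0.47 for IDH3G, -0.42 for OGDH and -0.71 for OGDHL. For IDH2, IDH3G and OGDH neither single-agent change passed, and the combination change did. The calls for IDH3A and IDH3B were each lost on leaving out single libraries, with -0.30 to -0.23 for IDH3A without DMSO B, AKTi B or C, EZH2i B or C, or combination A, and -0.26 to -0.21 for IDH3B without DMSO B, AKTi C, EZH2i C, or combination B or C.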

How the results depend on the processing

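The number of the 10 genes called was 10 in the combination against DMSO under all 19 alternatives. It was 4 to 7 with AKTi (6 as reported), 7 to 8 with EZH2i, 9 to 10 for the combination against AKTi, 7 to 9 against EZH2i and 5 to 7 for the interaction. As reported, the share of all tested genes called was 73.2% in the combination, 42.5% with AKTi and 64.1% with EZH2i. It was 64.2% for the combination against AKTi, 46.7% against EZH2i and 28.2% for the interaction. Each of these shares was lower with DESeq2. The counts of the 10 genes alone therefore do not show an excess over all genes. With a replicate block the counts were 10 for the combination against DMSO, 6 with AKTi, 7 with EZH2i, 10 against AKTi, 8 against EZH2i and 7 for the interaction, and the block changed no call. Ipatasertib changed 6 of the 9 ratios under every alternative. Tazemetostat changed 3, and with each library left out in turn 3 to 5, with 5 without EZH2i library B or combination library B.

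Of estimates for a gene and a comparison under an alternative, 19 changed sign, 32 lost and 12 gained a call, and 1067 did neither. The sign changes were all of estimates that did not pass. For IDH2 with EZH2i (0.01), DESeq2 gave -0.0011 and leaving out libraries -0.077 to 0.052. For IDH3B with AKTi (-0.05), library size gave 0.013 and upper quartile 0.012. For IDH3G with EZH2i (-0.11), they gave 0.032 and 0.0065. For OGDH with EZH2i (-0.02), library size gave 0.13, upper quartile 0.10 and at least 10 counts in every library 0.015, and leaving out libraries -0.11 to 0.056. For SUCLG2 against EZH2i (0.05) leaving out libraries gave -0.016 to 0.081, and for the SUCLA2 interaction (-0.09) -0.16 to 0.0046. For the tazemetostat effect on the ratio of IDH3A to IDH2 (0.0033), leaving out libraries gave -0.044 to 0.057. When libraries were scaled by size alone or by upper quartile, the median of all tested genes in the combination moved from 0.06 to 0.26 and 0.25, and falls are then measured against that shift. The changes of IDH3B (-0.23) and SUCLG2 (-0.25) with EZH2i were also smaller by over 1.5 times with library size and still passed. The causes were not tested. OGDHL, with 54 to 88 counts in DMSO, has the widest errors.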
